A study of Homo sapiens with 12 samples.

Results

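The insulin-like growth factor (IGF) system was read in 29 probe sets annotated to 10 genes, out of 54675 probe sets on the array: the ligands IGF1 and IGF2, the receptor IGF1R and the binding proteins IGFBP1 to IGFBP7. Members were taken by gene symbol alone. IGF1 and IGF1R had 5 probe sets each, IGF2 3, IGFBP5 6, IGFBP7 3, IGFBP1 and IGFBP3 2 each, and IGFBP2, IGFBP4 and IGFBP6 1 each. The 3 probe sets of IGF2 also carry the symbol of INS-IGF2, a readthrough transcript, so IGF2 and INS-IGF2 were not told apart. Each gene is described by its brightest probe set, and its other probe sets are given beside it.

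The cells were H9, a human embryonic stem cell line, and all 12 samples carried a doxycycline-inducible (Tet-on) construct for GCNF, which is a nuclear receptor without a known ligand and the product of NR6A1. There were 4 groups of 3 arrays. Day 6 cells labelled Dox were cultured for 6 days in differentiation medium with serum and 1 µg/ml doxycycline (Dox). Day 6 cells labelled RA had 1 µM retinoic acid (RA) in the same medium for the same time. Dox-treated d0 cells were undifferentiated and received 1 µg/ml Dox for 4 days, and untreated d0 cells were undifferentiated with neither agent. The stated questions were what GCNF does before differentiation (d0 with and without Dox) and at day 6 (Dox against RA). The labels name the replicates biological and give no separate origin, so p-values measure only the spread between these arrays. No day 6 group with neither agent was among the samples used here, so the day 6 groups differ in agent and also carry the change of medium and time.

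IGF1 and IGF2 are secreted peptides that activate the receptor tyrosine kinase IGF1R, which signals through IRS adaptors, PI3-kinase and AKT to growth and survival. IGFBP1 to IGFBP6 bind both ligands with high affinity in the extracellular space and can hold them back from the receptor or carry them to it, until proteases such as PAPPA cleave the binding protein. IGFBP7 is a related protein that binds IGFs weakly. IGF2 is an imprinted gene with high expression in fetal tissues, and cultures of human embryonic stem cells depend in part on IGF signalling.

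At day 6 the retinoic acid response genes went against the labels and the NR6A1 probe sets were split, and the words "Dox-labelled" and "RA-labelled" are used for that reason. Of 7 NR6A1 probe sets, 3 were higher and 3 lower in Dox-labelled than in RA-labelled day 6 arrays. The brightest, 228894_at, followed the labels, with means of 1009 in Dox-labelled and 528 in RA-labelled day 6 arrays (log2 0.89, SE 0.15, adjusted p = 0.0026), and 2869 in Dox-treated against 1457 in untreated d0 arrays. Probe sets 227494_at (0.99) and 227496_at (0.79) did so too. Probe set 207742_s_at went the other way at day 6, with means of 29.2 in Dox-labelled and 336.0 in RA-labelled arrays (log2 -2.99, SE 0.30, adjusted p = 1.09e-04), and 615 in Dox-treated against 26.8 in untreated d0 arrays, as did 210392_x_at (-1.21) and 211402_x_at (-1.61). With Dox at d0 these 3 rose by 3.96, 1.79 and 2.33, and the 3 that followed the labels by 0.97, 0.62 and 0.85. In RA-labelled day 6 against untreated d0 arrays the contrary 3 were higher by 3.09, 1.63 and 2.11. There 228894_at, 227494_at and 227496_at were called lower, at -1.44, -1.76 and -1.43. Their means were 1009, 408 and 365 in Dox-labelled day 6 arrays, under the 1457, 705 and 579 of untreated d0 arrays. Those of the contrary 3 were 29.2, 166 and 176 in Dox-labelled day 6 and 26.8, 121 and 120 in untreated d0 arrays. All 7 were lower in Dox-labelled day 6 than in Dox-treated d0 arrays, at an adjusted p under 0.05 (34.9% of all probe sets, in either direction). The summed intensity of 6 measured retinoic acid response genes was 55667 to 58497 in Dox-labelled day 6 arrays, 3123 to 3577 in RA-labelled ones, 8852 to 9275 in Dox-treated d0 arrays and 5451 to 5937 in untreated d0 arrays. CYP26A1, the enzyme that degrades retinoic acid and a standard target of it, averaged 29594 in Dox-labelled and 271 in RA-labelled day 6 arrays. Every direction between the day 6 groups below is that of the labels.

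All arrays had the same trimmed mean, and arrays of a group correlated at 0.980 to 0.982. The 3'/5' signal ratio for ACTB, a sign of RNA and labelling quality, averaged 2.33 in Dox-labelled and 2.59 in RA-labelled day 6 arrays, 3.86 in Dox-treated and 3.24 in untreated d0 arrays. Summed markers of undifferentiated cells (11 of 12 measured) were 42484 to 43849 in Dox-labelled and 31736 to 33895 in RA-labelled day 6 arrays, against 132387 to 136620.5 in Dox-treated and 138184 to 150492 in untreated d0 arrays. Between the day 6 groups 4 were higher and 4 lower in Dox-labelled arrays at an adjusted p under 0.05 (11.4% and 9.74% of all genes). PODXL averaged 20508 in Dox-labelled and 11730 in RA-labelled day 6 arrays, while NANOG averaged 36.7 in Dox-labelled and 640 in RA-labelled ones. Summed mesenchyme markers (12 of 12 measured) were 124654 to 128145 in Dox-labelled and 103639 to 116398 in RA-labelled day 6 arrays, 35943 to 36671 in Dox-treated d0 arrays and 31952 to 33855 in untreated d0 arrays. Of these, 4 were called higher and 2 lower in Dox-labelled than in RA-labelled day 6 arrays. Dox-labelled and RA-labelled means were 10845 and 1042 for POSTN, 1320 and 2350 for COL6A3, and 37199 and 36524 for COL1A1, the brightest. The part of RNA quality and of these cell types in the results below was not tested. In such bulk samples, fewer cells of a type and less RNA per cell cannot be told apart.

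The largest log2 fold changes of the IGF genes lay between Dox-labelled day 6 and d0 arrays. IGF2, IGFBP2, IGFBP4, IGFBP6 and IGFBP7 rose and IGFBP5 fell in both day 6 groups against their d0 group. IGFBP3 rose in the Dox-labelled day 6 arrays, while IGF1R rose in the RA-labelled ones. Between the day 6 groups, IGF2, IGFBP3 and IGFBP6 were 11.1-fold to 12.3-fold higher in the Dox-labelled arrays, and IGF1R and IGFBP4 were lower. The changes with Dox at d0 were smaller, with IGFBP2 higher and IGFBP3, IGFBP5 and IGFBP7 lower.

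In counts, 7 of the 10 genes were called in Dox-labelled day 6 against Dox-treated d0 arrays (6 higher, 1 lower) at an adjusted p under 0.05 in limma, against 42.7% of all genes (20.7% higher, 22.1% lower). In RA-labelled day 6 against untreated d0 arrays 7 were called (6 higher, 1 lower), against 47.6% of all genes (23.9% higher, 23.7% lower). Between the day 6 groups 5 were called (3 higher, 2 lower in Dox-labelled arrays), against 21.2% of all genes (11.4% higher, 9.74% lower). Among the d0 groups, 4 were called with Dox (1 higher, 3 lower), against 8.47% of all genes (5.14% higher, 3.33% lower). Without any 1 of the 6 d0 arrays the last count was 1 to 3, with 1 called without untreated replicate 1. IGFBP7 was the call that held in each of those fits.

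The median log2 fold change of the 10 genes was 0.90 in Dox-labelled day 6 against Dox-treated d0 arrays, where the median of all genes was -0.03. It was 0.78 in RA-labelled day 6 against untreated d0 arrays (all genes -0.01), 0.06 between the day 6 groups (all genes 0.001) and -0.20 with Dox at d0 (all genes 0.03). Fold changes here and below are on the log2(intensity + 16) scale, which understates the change of dim probe sets, and they are given with a standard error (SE) and the adjusted p. The comparisons share groups with each other, so their values are set side by side and were not used to support each other. The plot of the members by array shows the levels behind these counts.

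**Figure D1:**
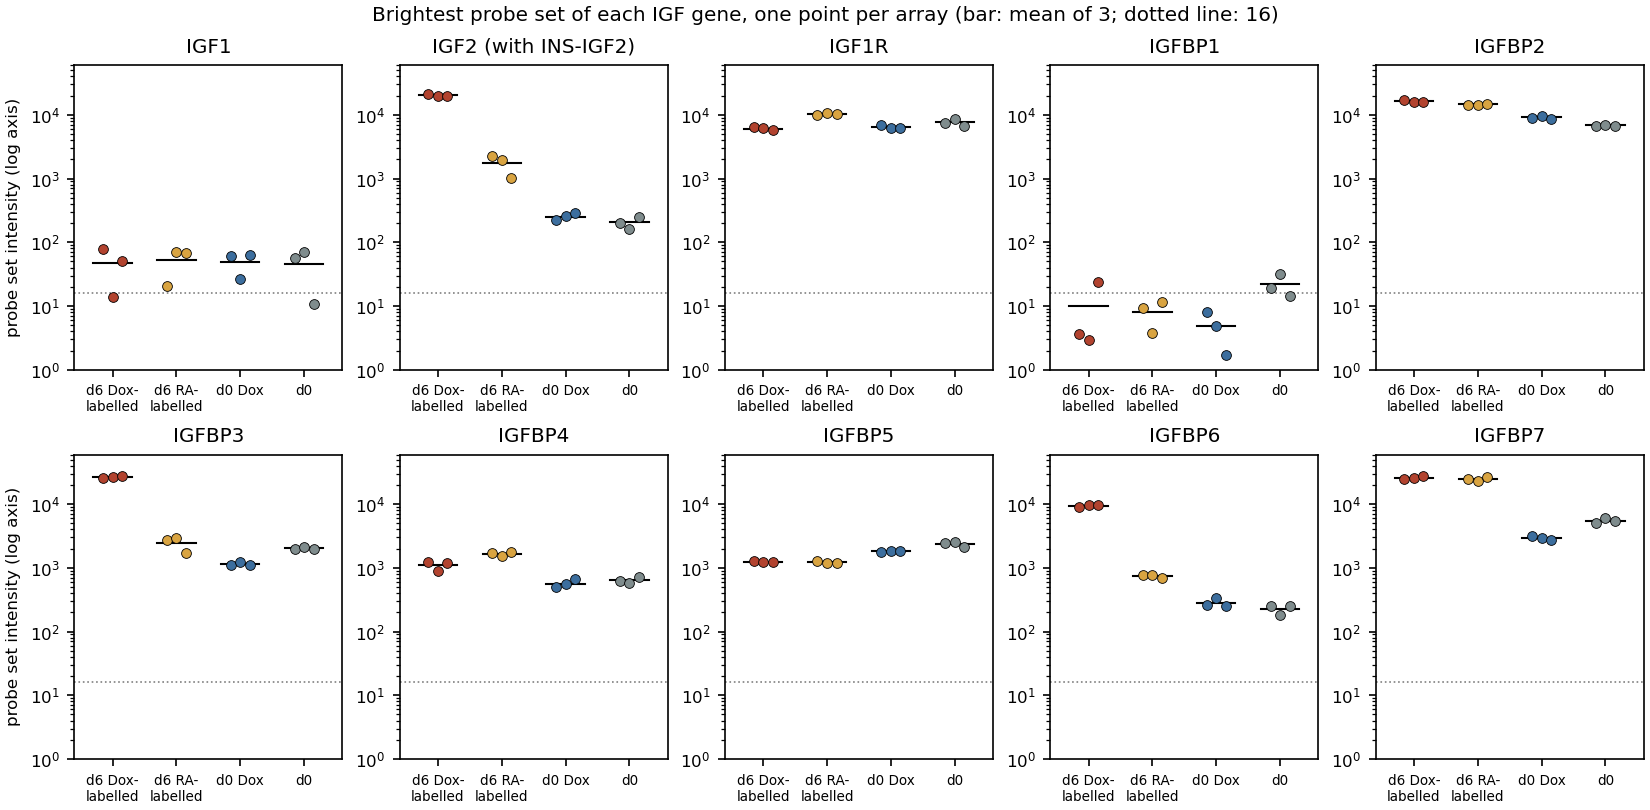
Intensity of the brightest probe set of each of the 10 IGF genes on a log axis, with 1 point per array, 3 arrays per group and a bar at the group mean. IGF2, IGFBP3 and IGFBP6 stand highest in the Dox-labelled day 6 arrays, IGFBP7 is high in both day 6 groups, and IGF1 and IGFBP1 lie near the dotted line at 16.

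IGF2, the ligand of fetal growth, had the widest range of the 10 genes. Its brightest probe set (202409_at) read 21245, 20021 and 19994 in Dox-labelled day 6 arrays and 2287, 1939.5 and 1026 in RA-labelled ones, against 220.3, 254 and 285 in Dox-treated d0 arrays and 202, 161 and 252 in untreated d0 arrays. The 2 day 6 groups overlapped neither each other nor the d0 arrays, and the d0 groups overlapped. RA-labelled replicate 3 was the lowest of its group.

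The log2 fold change of IGF2 was 6.25 (SE 0.26, adjusted p = 6.37e-08) in Dox-labelled day 6 against Dox-treated d0 arrays. It was 2.94 (SE 0.26, adjusted p = 7.98e-06) in RA-labelled day 6 against untreated d0 arrays. The day 6 groups differed by 3.61 (SE 0.26, adjusted p = 1.42e-05), a 12.2-fold higher level in the Dox-labelled arrays. Dox at d0 gave 0.30, with a 95% interval of -0.29 to 0.89 (adjusted p = 0.618). The other IGF2 probe sets went the same way, with log2 fold changes of 3.85 (202410_x_at) and 4.24 (210881_s_at) between the day 6 groups. The rise of 210881_s_at in RA-labelled day 6 against untreated d0 arrays (1.53, adjusted p = 0.0213) was lost without untreated replicate 2 or RA-labelled replicate 1 (adjusted p of 0.072 to 0.0773). The probe set of INS alone read under 5 on every array, from a mean of 2.2 in Dox-labelled day 6 arrays to 3.3 in Dox-treated d0 arrays. IGF2-AS, an antisense RNA of the locus, averaged 145 in Dox-labelled and 19.7 in RA-labelled day 6 arrays, and 17.9 in Dox-treated and 37.5 in untreated d0 arrays. It was higher in Dox-labelled than in RA-labelled day 6 arrays by 2.19 on the log2 scale (SE 0.35, adjusted p = 0.00218).

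IGF1, the ligand that acts postnatally under growth hormone, was dim in all groups. Its brightest probe set (209542_x_at) read 78.4, 13.7 and 50.1 in Dox-labelled day 6 arrays and 20.4, 69.8 and 67.5 in RA-labelled ones, against 59.9, 26.2 and 62.6 in Dox-treated d0 arrays and 55.9, 69.4 and 10.7 in untreated ones. All 4 groups overlapped. The log2 difference between the day 6 groups was -0.16 with an interval of -1.41 to 1.08, wide enough to hold a change of more than 1 log2 unit in either direction. None of the 5 IGF1 probe sets was called in the 4 main comparisons. Probe set 211577_s_at was called once among the other pairs of groups, at 1.42 (SE 0.42, adjusted p = 0.022) in Dox-labelled day 6 against untreated d0 arrays. Its means there were 54.4 in Dox-labelled day 6 and 10.3 in untreated d0 arrays, and the call was lost in 4 of the 6 fits without 1 array (adjusted p of 0.0602 to 0.0669).

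IGF1R, the receptor of both ligands, was bright in all groups by its brightest probe set. Its brightest probe set (225330_at) read 6346, 6143 and 5753 in Dox-labelled day 6 arrays and 10049, 10842 and 10391 in RA-labelled ones, against 6946, 6315 and 6189.7 in Dox-treated d0 arrays and 7349, 8684 and 6777 in untreated d0 arrays. The RA-labelled arrays lay above all others, and the Dox-labelled day 6 arrays overlapped with the Dox-treated d0 arrays. Its log2 fold change between the day 6 groups was -0.78 (SE 0.11, adjusted p = 7.84e-04), a level 1.71-fold lower in Dox-labelled arrays. In RA-labelled day 6 against untreated d0 arrays it was 0.46 (SE 0.11, adjusted p = 0.00535). In Dox-labelled day 6 against Dox-treated d0 arrays it was -0.09 with an interval of -0.33 to 0.14, and with Dox at d0 it was -0.22 with an interval of -0.46 to 0.01.

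The other IGF1R probe sets did not all follow. Probe sets 203628_at (-0.90) and 203627_at (-0.62) were also called lower in Dox-labelled than in RA-labelled day 6 arrays. At d0, 203628_at was called lower with Dox (-0.56, SE 0.12, adjusted p = 0.0258), a call that was lost without untreated replicate 1 or 2 or Dox-treated replicate 2 or 3, at adjusted p-values up to 0.0939. In Dox-labelled day 6 against Dox-treated d0 arrays, 203627_at was called higher (0.60, SE 0.13, adjusted p = 0.00499) where the brightest probe set was not called. Its means in RA-labelled day 6 and untreated d0 arrays were 2762 and 1540, and it was called higher there as well. Probe sets 203628_at (2552 and 2299), 208441_at (34.9 and 38.3) and 243358_at (59.8 and 51.2) were not called between those groups. The dim probe set 243358_at read 10.4, 5.7 and 9.6 in Dox-labelled day 6 arrays and 48.3, 61.4 and 69.6 in RA-labelled ones, against 11.1, 10.2 and 7.1 in Dox-treated and 54.6, 50.1 and 48.9 in untreated d0 arrays. Both groups labelled with Dox were thus under 16 on every array and both others were above 48. Probe set 203628_at had the same split, at 1266 to 1529 in Dox-labelled day 6 and 1429 to 1711 in Dox-treated d0 arrays, against 2319 to 2805 in RA-labelled day 6 and 2101 to 2532 in untreated d0 arrays. The brightest probe set did not. For the dim 243358_at the log2 fold change was -1.62 (SE 0.13, adjusted p = 2.18e-05) between the day 6 groups and -1.40 (SE 0.13, adjusted p = 1.88e-04) with Dox at d0. The size of both values depends on the pseudocount of 16.

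IGFBP3, the main IGF carrier of the circulation, and IGFBP6, which prefers IGF2 over IGF1, were the binding proteins with the largest differences between the day 6 groups, and IGFBP4 went the other way. Their promoters are shown for that reason, from RefSeq on GRCh38.p14, from before to just past the gene's start and 5′ to 3′ along the gene. IGFBP3 lies at chr7:45921223-45921522 on the minus strand, IGFBP6 at chr12:53097417-53097716 on the plus strand and IGFBP4 at chr17:40443200-40443499 on the plus strand. Capitals mark matches on either strand to 4 motifs, which are the nuclear receptor half-site AGGTCA, the retinoid half-site variant GGTTCA, the TATA box TATAAA and the GC box GGGCGG.
IGFBP3: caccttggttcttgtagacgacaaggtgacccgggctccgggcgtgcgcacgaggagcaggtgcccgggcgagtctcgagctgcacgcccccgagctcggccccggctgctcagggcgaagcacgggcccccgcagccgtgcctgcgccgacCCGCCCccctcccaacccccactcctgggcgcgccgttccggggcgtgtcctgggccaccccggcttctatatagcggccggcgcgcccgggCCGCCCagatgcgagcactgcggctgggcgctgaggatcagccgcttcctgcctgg
IGFBP6: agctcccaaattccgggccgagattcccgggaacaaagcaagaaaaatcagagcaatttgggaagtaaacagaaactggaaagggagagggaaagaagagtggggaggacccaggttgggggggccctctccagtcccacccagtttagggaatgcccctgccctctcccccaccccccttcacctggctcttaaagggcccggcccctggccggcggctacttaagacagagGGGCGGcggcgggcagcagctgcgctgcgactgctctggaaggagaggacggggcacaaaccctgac
IGFBP4: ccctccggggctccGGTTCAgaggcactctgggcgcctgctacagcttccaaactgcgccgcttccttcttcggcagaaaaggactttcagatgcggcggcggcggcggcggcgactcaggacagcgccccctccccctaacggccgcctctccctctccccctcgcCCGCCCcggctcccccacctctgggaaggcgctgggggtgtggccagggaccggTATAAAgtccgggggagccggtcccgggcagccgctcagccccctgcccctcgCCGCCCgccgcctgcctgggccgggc

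Among these, IGFBP3 held 2 GC boxes and IGFBP6 held 1, and neither window contained the exact letters of the other 3 motifs. Variants of the letters, such as other forms of a TATA box, were not searched for. IGFBP4 held 2 GC boxes, 1 TATA box and 1 GGTTCA, and no matches overlapped. Of 35116 promoters of this length, 45.0% held a GC box, 13.8% the half-site AGGTCA, 11.5% the TATA box and 8.62% GGTTCA. The windows had 74.7% (IGFBP3), 61.7% (IGFBP6) and 74.0% (IGFBP4) G and C, where the median promoter had 58.7%. The table held promoters for 7 of the 10 genes, without IGF2, IGFBP1 and IGFBP7.

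IGFBP3 (210095_s_at) read 25373, 27067 and 27419.9 in Dox-labelled day 6 arrays and 2723, 2892 and 1730.1 in RA-labelled ones, against 1126, 1247 and 1093 in Dox-treated d0 arrays and 1968, 2157 and 1962 in untreated d0 arrays. The Dox-labelled day 6 arrays stood far above all others, and the RA-labelled arrays overlapped with the untreated d0 arrays. The log2 fold change was 4.51 (SE 0.17, adjusted p = 3.03e-08) in Dox-labelled day 6 against Dox-treated d0 arrays and 3.47 (SE 0.17, adjusted p = 9.64e-07) between the day 6 groups. In RA-labelled day 6 against untreated d0 arrays it was 0.24 with an interval of -0.14 to 0.61 (adjusted p = 0.334), and without RA-labelled replicate 3, the lowest, it was 0.47 and called (adjusted p = 0.00565). With Dox at d0 it fell by 0.80 (SE 0.17, adjusted p = 0.0224). That call was lost in 5 of the 6 fits without 1 d0 array, at adjusted p-values of 0.0521 to 0.0778, and held without Dox-treated replicate 2. The other IGFBP3 probe set gave 4.64, 3.86 and -0.57 in the same 3 comparisons and was called in each, the last call being lost without any 1 of the d0 arrays (adjusted p of 0.0544 to 0.113).

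IGFBP6 (203851_at) read 8933, 9508 and 9689 in Dox-labelled day 6 arrays and 783, 764 and 692 in RA-labelled ones, against 263, 332 and 253 in Dox-treated d0 arrays and 255, 182 and 249 in untreated d0 arrays. Both day 6 groups lay above all d0 arrays and apart from each other, and the d0 groups overlapped. The log2 fold change was 4.98 (SE 0.14, adjusted p = 5.58e-09) in Dox-labelled day 6 against Dox-treated d0 arrays. It was 1.65 (SE 0.14, adjusted p = 5.76e-06) in RA-labelled day 6 against untreated d0 arrays and 3.62 (SE 0.14, adjusted p = 2.23e-07) between the day 6 groups. Dox at d0 gave 0.29, with an interval of -0.02 to 0.61.

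IGFBP4, an inhibitor of IGF action that PAPPA cleaves, was read by 201508_at and had 1246, 900.1 and 1192 in Dox-labelled day 6 arrays and 1717, 1521 and 1757 in RA-labelled ones, against 493, 549 and 659 in Dox-treated d0 arrays and 619, 587 and 709 in untreated d0 arrays. Both day 6 groups lay above all d0 arrays, and the RA-labelled arrays were the highest. It rose by 0.95 (SE 0.15, adjusted p = 6.3e-04) in Dox-labelled day 6 against Dox-treated d0 arrays and by 1.36 (SE 0.15, adjusted p = 3.87e-05) in RA-labelled day 6 against untreated d0 arrays. In Dox-labelled against RA-labelled day 6 arrays it fell by 0.59 (SE 0.15, adjusted p = 0.026). That call was lost without RA-labelled replicate 1 or 3 or Dox-labelled replicate 2, at adjusted p-values of 0.076 to 0.0859. The difference with Dox at d0 was -0.17, with an interval of -0.51 to 0.16.

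IGFBP7 was among the brightest genes at day 6. Its brightest probe set (201163_s_at) read 25102, 25887 and 27176 in Dox-labelled and 24485, 23449 and 26338 in RA-labelled day 6 arrays, against 3123, 2937 and 2781 in Dox-treated d0 arrays and 4969, 6017 and 5347 in untreated d0 arrays. The day 6 groups overlapped, and the Dox-treated d0 arrays were the lowest of all. IGFBP7 rose by 3.14 (SE 0.10, adjusted p = 8.85e-09) in Dox-labelled day 6 against Dox-treated d0 arrays and by 2.18 (SE 0.10, adjusted p = 6.6e-08) in RA-labelled day 6 against untreated d0 arrays. With Dox at d0 it fell by 0.88 (SE 0.10, adjusted p = 6.61e-04), the largest called change of the 10 genes in that comparison. The day 6 groups differed by 0.07, with an interval of -0.14 to 0.29. Probe set 201162_at gave 3.85, 2.74 and -0.88 where the first gave 3.14, 2.18 and -0.88. The third IGFBP7 probe set, 213910_at, was dim at d0 and was called only in day 6 against d0. In these 2 probe sets the day 6 groups did not overlap, in opposite directions, and neither was called between them. Probe set 201162_at averaged 32242 in Dox-labelled and 27455 in RA-labelled day 6 arrays, and 213910_at averaged 391 in Dox-labelled and 524 in RA-labelled ones.

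IGFBP2, a binding protein abundant in fetal tissues, was bright in all groups and higher at day 6. Its probe set (202718_at) read 17275, 15894 and 16044 in Dox-labelled and 14367, 14478 and 14826 in RA-labelled day 6 arrays, against 8775, 9736 and 8751 in Dox-treated d0 arrays and 6774, 6972 and 6737 in untreated d0 arrays. No 2 groups overlapped. It rose by 0.85 (SE 0.08, adjusted p = 1.55e-05) in Dox-labelled day 6 against Dox-treated d0 arrays and by 1.09 (SE 0.08, adjusted p = 1.85e-06) in RA-labelled day 6 against untreated d0 arrays. With Dox at d0 it rose by 0.41 (SE 0.08, adjusted p = 0.0153), and that call was lost without untreated replicate 1 (adjusted p = 0.054) or Dox-treated replicate 2 (adjusted p = 0.0602). Its difference between the day 6 groups was 0.17 with an interval of -0.01 to 0.35 (adjusted p = 0.201).

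IGFBP5, a binding protein of the extracellular matrix, was lower at day 6 than at d0. Its brightest probe set (211959_at) read 1273, 1231 and 1239 in Dox-labelled and 1293.5, 1197 and 1209.9 in RA-labelled day 6 arrays, against 1782, 1851 and 1844 in Dox-treated d0 arrays and 2478, 2548 and 2137 in untreated d0 arrays. The day 6 groups overlapped, and the 2 d0 groups lay above them and apart from each other. It fell by 0.54 (SE 0.09, adjusted p = 7.05e-04) in Dox-labelled day 6 against Dox-treated d0 arrays and by 0.94 (SE 0.09, adjusted p = 1.09e-05) in RA-labelled day 6 against untreated d0 arrays. In d0 cells with Dox it fell by 0.38 (SE 0.09, adjusted p = 0.0333), a call lost in 5 of the 6 fits without 1 d0 array, at adjusted p-values of 0.0823 to 0.111, and held without untreated replicate 3. Its difference between the day 6 groups was 0.02, with an interval of -0.18 to 0.21.

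The 6 IGFBP5 probe sets disagreed in part. Besides the brightest, 203424_s_at was called lower in both day 6 groups (-0.40 in Dox-labelled day 6 against Dox-treated d0 and -0.69 in RA-labelled day 6 against untreated d0 arrays). Probe set 211958_at was called lower in RA-labelled day 6 against untreated d0 arrays (-0.41) and 203425_s_at in Dox-labelled day 6 against Dox-treated d0 arrays (-0.83). The first of these calls of 203424_s_at and those of 211958_at and 203425_s_at were each lost in 4 or 5 of the 6 fits without 1 array, at adjusted p-values up to 0.146. The other 5 were not called with Dox at d0, and 3 of them had positive values.

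IGFBP1, a liver and decidua binding protein under insulin control, was at the edge of measurement. Its brighter probe set (205302_at) read 3.7, 2.9 and 23.9 in Dox-labelled and 9.2, 3.8 and 11.4 in RA-labelled day 6 arrays, against 7.9, 4.8 and 1.7 in Dox-treated d0 arrays and 19.2, 32.1 and 14.2 in untreated d0 arrays. The untreated d0 arrays were the highest group, and 9 of the 12 arrays lay under 16. Neither probe set was called in any comparison. The difference with Dox at d0 was -0.85 with an interval of -1.49 to -0.20 before adjustment (adjusted p = 0.137).

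**Figure D2:**
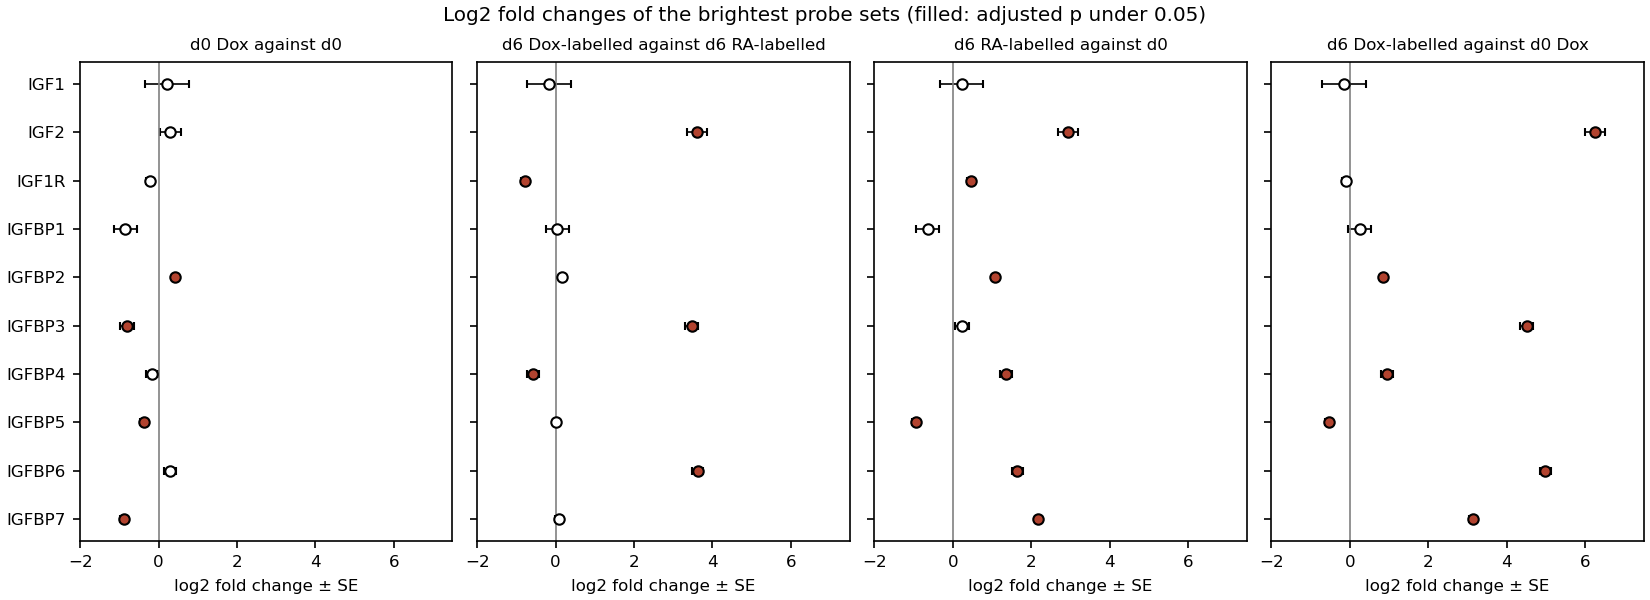
Log2 fold change of the brightest probe set of each gene with its standard error, in 1 panel per comparison, with filled points at an adjusted p under 0.05. The longest shifts are those of IGF2, IGFBP3 and IGFBP6 in the panels of Dox-labelled arrays, and the panel of d0 groups holds 4 filled points within 1 log2 unit of 0.

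Order of levels, written from highest to lowest, with neighbours tested in the same fit, separated the genes. IGF2 and IGFBP6 ran from Dox-labelled day 6 to RA-labelled day 6 to Dox-treated d0 to untreated d0, and the last pair was not called apart. IGFBP2 ran in the same order, with its day 6 groups not called apart. IGFBP3 and IGFBP7 ran from Dox-labelled day 6 to RA-labelled day 6 to untreated d0 to Dox-treated d0, with RA-labelled day 6 and untreated d0 not called apart for IGFBP3 and the day 6 groups not called apart for IGFBP7. IGFBP4 ran from RA-labelled day 6 to Dox-labelled day 6 to untreated d0 to Dox-treated d0, with the d0 groups not called apart, and IGFBP5 had the d0 groups on top. IGF1R ran from RA-labelled day 6 to untreated d0, Dox-treated d0 and Dox-labelled day 6, and only its first step was called. No neighbours were called apart for IGF1 or IGFBP1. In the pairs used only for this order, 8 of the 10 genes were called in Dox-labelled day 6 against untreated d0 arrays, against 45.7% of all genes, and 8 in RA-labelled day 6 against Dox-treated d0 arrays, against 45% of all genes. The IGF1R call in the first of these pairs was lost in 5 of the 6 fits without 1 array (adjusted p of 0.0578 to 0.127).

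**Figure D3:**
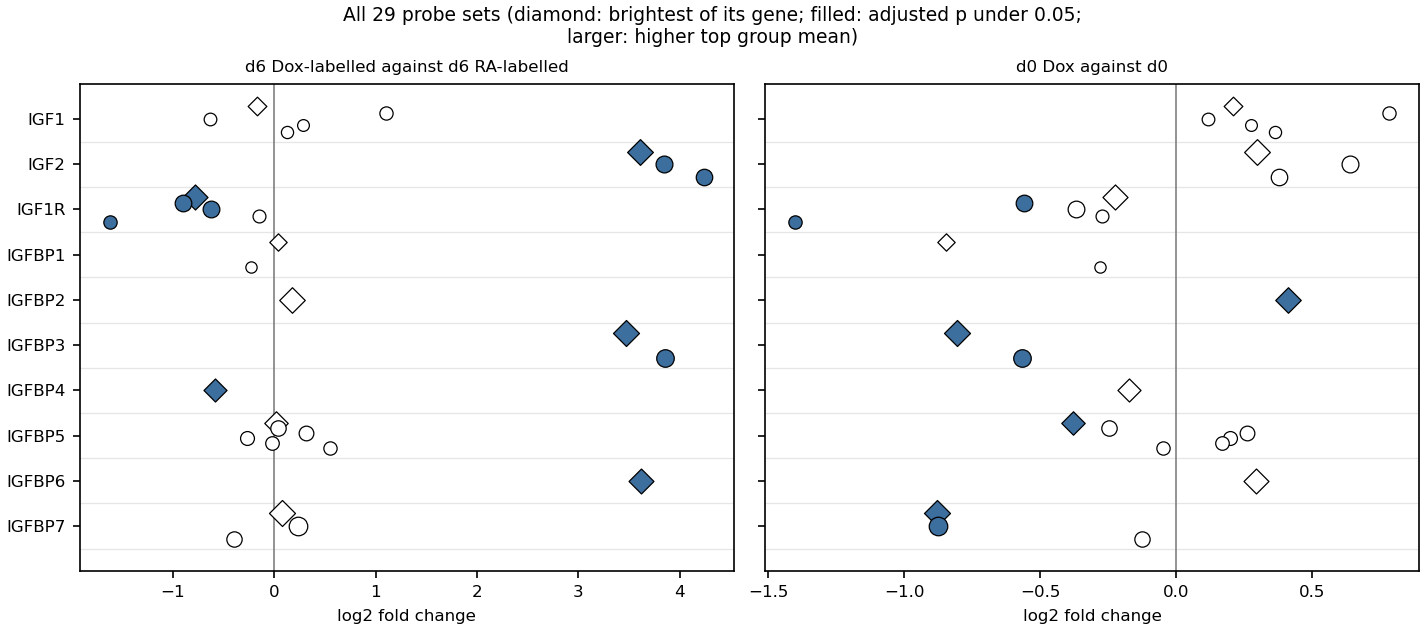
Log2 fold changes of all 29 probe sets between the day 6 groups (left) and with Dox at d0 (right), with a diamond for the brightest probe set of each gene and filled symbols at an adjusted p under 0.05. All probe sets of IGF2 and IGFBP3 lie together on the left, while those of IGFBP5 spread to both sides of 0 on the right.

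Counted by probe set, 15 of 29 were called in Dox-labelled day 6 against Dox-treated d0 arrays (12 higher, 3 lower), where 34.9% of all probe sets were called. In RA-labelled day 6 against untreated d0 arrays 14 were called (11 higher, 3 lower; 38.1% of all), between the day 6 groups 11 (6 higher, 5 lower; 15.5% of all) and with Dox at d0 8 (1 higher, 7 lower; 5.82% of all). Probe sets of 1 gene share its RNA and are not independent. Centring each array on its median moved the median log2 fold change of all probe sets in Dox-labelled day 6 against Dox-treated d0 arrays by 0.11, so that 55.9% of the probe sets called there were higher, against 42.8% before, and the 7 calls among the 10 genes held. In Dox-labelled day 6 against untreated d0 arrays that share was 54.4% with centring and 44.4% before. Dox-labelled day 6 and Dox-treated d0 arrays did not overlap for 7 of the 10 genes, as for 55.7% of all genes. RA-labelled day 6 and untreated d0 arrays did not overlap for 8 (56.3% of all genes), the day 6 groups for 6 (41.6% of all genes) and the d0 groups for 5 (31.5% of all genes).

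Whether day 6 differed from d0 by the same amount in both arms was tested as the difference of the 2 contrasts, with Dox-labelled day 6 minus Dox-treated d0 set against RA-labelled day 6 minus untreated d0. Of the 10 genes 5 were called, against 18.7% of all genes, and of their 29 probe sets 8 were called larger and 1 smaller in the Dox arm, against 13.4% of all probe sets. The difference was 4.27 for IGFBP3 (SE 0.24, adjusted p = 4.41e-06), 3.33 for IGFBP6 (SE 0.20, adjusted p = 7e-06), 3.31 for IGF2 (SE 0.37, adjusted p = 3.81e-04) and 0.95 for IGFBP7 (SE 0.14, adjusted p = 0.00155), all larger in the Dox arm. For IGF1R it was -0.55 (SE 0.15, adjusted p = 0.0358), a call lost in 11 of the 12 fits without 1 array (adjusted p of 0.0541 to 0.084), held without untreated d0 replicate 2 and lost with median centring. For IGFBP7 the day 6 groups overlapped in the brightest probe set, and its d0 levels were lower with Dox. With the d0 groups exchanged, its log2 fold change was 2.26 in Dox-labelled day 6 against untreated d0 arrays and 3.06 in RA-labelled day 6 against Dox-treated d0 arrays, so its order turned round. In that pairing IGF2 gave 6.55 in Dox-labelled and 2.64 in RA-labelled arrays, IGFBP3 3.70 in Dox-labelled and 1.04 in RA-labelled arrays, IGFBP6 5.27 in Dox-labelled and 1.36 in RA-labelled arrays, and IGF1R -0.32 in Dox-labelled and 0.69 in RA-labelled arrays. The differences in that pairing were not tested. For IGFBP5 the difference was 0.40 with an interval of 0.12 to 0.67 before adjustment (adjusted p = 0.0642), for IGFBP4 -0.41 (-0.89 to 0.06) and for IGFBP2 -0.24 (-0.49 to 0.01).

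**Figure D4:**
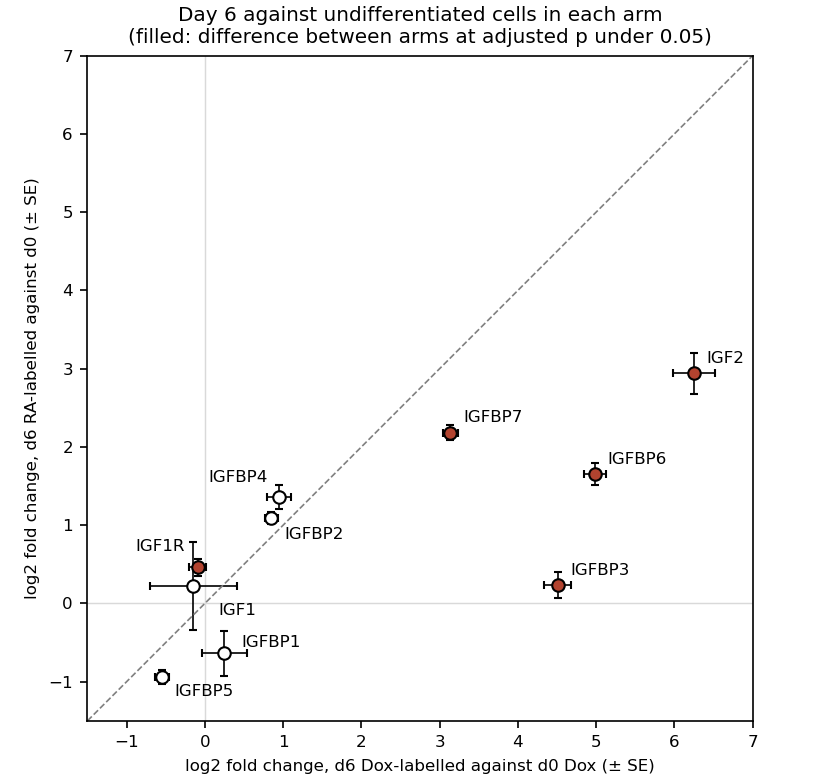
Log2 fold change of each gene in Dox-labelled day 6 against Dox-treated d0 arrays (x axis) and in RA-labelled day 6 against untreated d0 arrays (y axis), with standard errors; filled points mark genes whose 2 changes differ at an adjusted p under 0.05. IGF2, IGFBP3, IGFBP6 and IGFBP7 lie right of the dashed line of equal change, IGFBP3 with 4.51 against 0.24.

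Of 41 other genes of IGF signalling, 36 were measured by a probe set of their own, and H19, the imprinted neighbour of IGF2, was not among them. In Dox-labelled day 6 against Dox-treated d0 arrays 14 rose, 6 fell and 16 were not called (median 0.15). In RA-labelled day 6 against untreated d0 arrays 15 rose, 10 fell and 11 were not called (median 0.21). Between the day 6 groups 6 were higher, 7 lower and 23 not called (median -0.09), and with Dox at d0 4 were higher, 6 lower and 26 not called (median -0.03). These shares are read against the 42.7%, 47.6%, 21.2% and 8.47% of all genes given above.

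The 7 proteases of binding proteins and their inhibitors had 5 rises and 1 fall in each day 6 group against d0. Of all genes, 20.7% rose and 22.1% fell in Dox-labelled day 6 against Dox-treated d0 arrays. In RA-labelled day 6 against untreated d0 arrays 23.9% rose and 23.7% fell. PAPPA2, which cleaves IGFBP3 and IGFBP5, averaged 574 in Dox-labelled and 540.0 in RA-labelled day 6 arrays, against 107.0 in Dox-treated and 86.1 in untreated d0 arrays. PAPPA, which cleaves IGFBP4, averaged 3498 in Dox-labelled and 3693 in RA-labelled day 6 arrays, against 1639 in Dox-treated and 851 in untreated d0 arrays, and rose with Dox at d0 by 0.93 (SE 0.11, adjusted p = 0.00106). STC2, a stanniocalcin that blocks PAPPA, averaged 4280.0 in Dox-labelled and 1910.4 in RA-labelled day 6 arrays, and 400 in Dox-treated and 693 in untreated d0 arrays. STC2 was thus higher in Dox-labelled than in RA-labelled day 6 arrays by 1.16 (SE 0.14, adjusted p = 3.4e-04), and fell with Dox at d0 by 0.77 (SE 0.14, adjusted p = 0.00999). HTRA1, a secreted serine protease that cleaves IGFBP5, averaged 3571 in Dox-labelled and 1789.9 in RA-labelled day 6 arrays, and 732 in Dox-treated and 1152 in untreated d0 arrays. ADAM12, which cleaves IGFBP3 and IGFBP5, rose by 2.41 (SE 0.21, adjusted p = 1.08e-05) in Dox-labelled day 6 against Dox-treated d0 arrays and by 2.38 (SE 0.21, adjusted p = 8.29e-06) in RA-labelled day 6 against untreated d0 arrays.

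Among receptors, IGF2R, which clears IGF2, was lower in Dox-labelled than in RA-labelled day 6 arrays, at means of 8076 in Dox-labelled and 13239.6 in RA-labelled arrays (log2 -0.71, SE 0.08, adjusted p = 1.87e-04). IGF2R, like IGF1R, was thus lower where IGF2 was higher in that comparison. This did not hold in RA-labelled day 6 against untreated d0 arrays, where IGF2R, IGF2 and the brightest probe set of IGF1R all rose. IGF2R rose there by 1.21 (SE 0.08, adjusted p = 7.17e-07), from a mean of 5735 in untreated d0 arrays. Its mean in Dox-treated d0 arrays was 6959. INSR, the insulin receptor, averaged 733 in Dox-labelled day 6 against 1851 in Dox-treated d0 arrays (-1.32, SE 0.12, adjusted p = 1.07e-05). It also fell from 1477 in untreated d0 to 793 in RA-labelled day 6 arrays (-0.88, SE 0.12, adjusted p = 1.45e-04). The day 6 groups were not called apart for INSR (-0.12, adjusted p = 0.596). IGFBPL1, a protein with a binding protein domain, averaged 278 in Dox-labelled and 434 in RA-labelled day 6 arrays, against 2527 in Dox-treated and 1783 in untreated d0 arrays, and fell by 3.11 on the log2 scale (SE 0.09, adjusted p = 5.99e-09) in Dox-labelled day 6 against Dox-treated d0 arrays.

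Inside the cell, IRS4, an adaptor of the insulin receptor substrate family, averaged 71.4 in Dox-labelled and 102 in RA-labelled day 6 arrays, against 932 in Dox-treated and 1316 in untreated d0 arrays. It had the largest fall of the list in both day 6 groups, at a log2 fold change of -3.48 in Dox-labelled day 6 against Dox-treated d0 arrays and -3.52 in RA-labelled day 6 against untreated d0 arrays. GRB14, an adaptor that inhibits the insulin receptor, averaged 396 in Dox-labelled and 789 in RA-labelled day 6 arrays, against 1303 in Dox-treated and 1865 in untreated d0 arrays. FOXO1, a forkhead factor that AKT keeps out of the nucleus, averaged 751 in Dox-labelled and 323 in RA-labelled day 6 arrays, and 579.5 in Dox-treated and 1319 in untreated d0 arrays. FOXO1 was higher in Dox-labelled than in RA-labelled day 6 arrays by 1.18 (SE 0.10, adjusted p = 3.25e-05) and fell with Dox at d0 by 1.17 (SE 0.10, adjusted p = 1.18e-04).

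The regulatory subunits PIK3R1 and PIK3R3 of PI3-kinase were called in opposite directions with Dox at d0 and between the day 6 groups. PIK3R1 averaged 847 in Dox-labelled and 539.6 in RA-labelled day 6 arrays, and 539.8 in Dox-treated and 878 in untreated d0 arrays. PIK3R3 averaged 912 in Dox-labelled and 1857 in RA-labelled day 6 arrays, and 996 in Dox-treated and 532 in untreated d0 arrays. With Dox at d0, PIK3R1 fell by 0.69 (SE 0.10, adjusted p = 0.0029) and PIK3R3 rose by 0.88 (SE 0.11, adjusted p = 0.0012). TSC2, an inhibitor of mTOR signalling, averaged 475 in Dox-treated and 314 in untreated d0 arrays and was called at 0.56 (SE 0.14, adjusted p = 0.0481), a call lost without any 1 of the 6 d0 arrays (adjusted p of 0.0723 to 0.154).

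**Figure D5:**
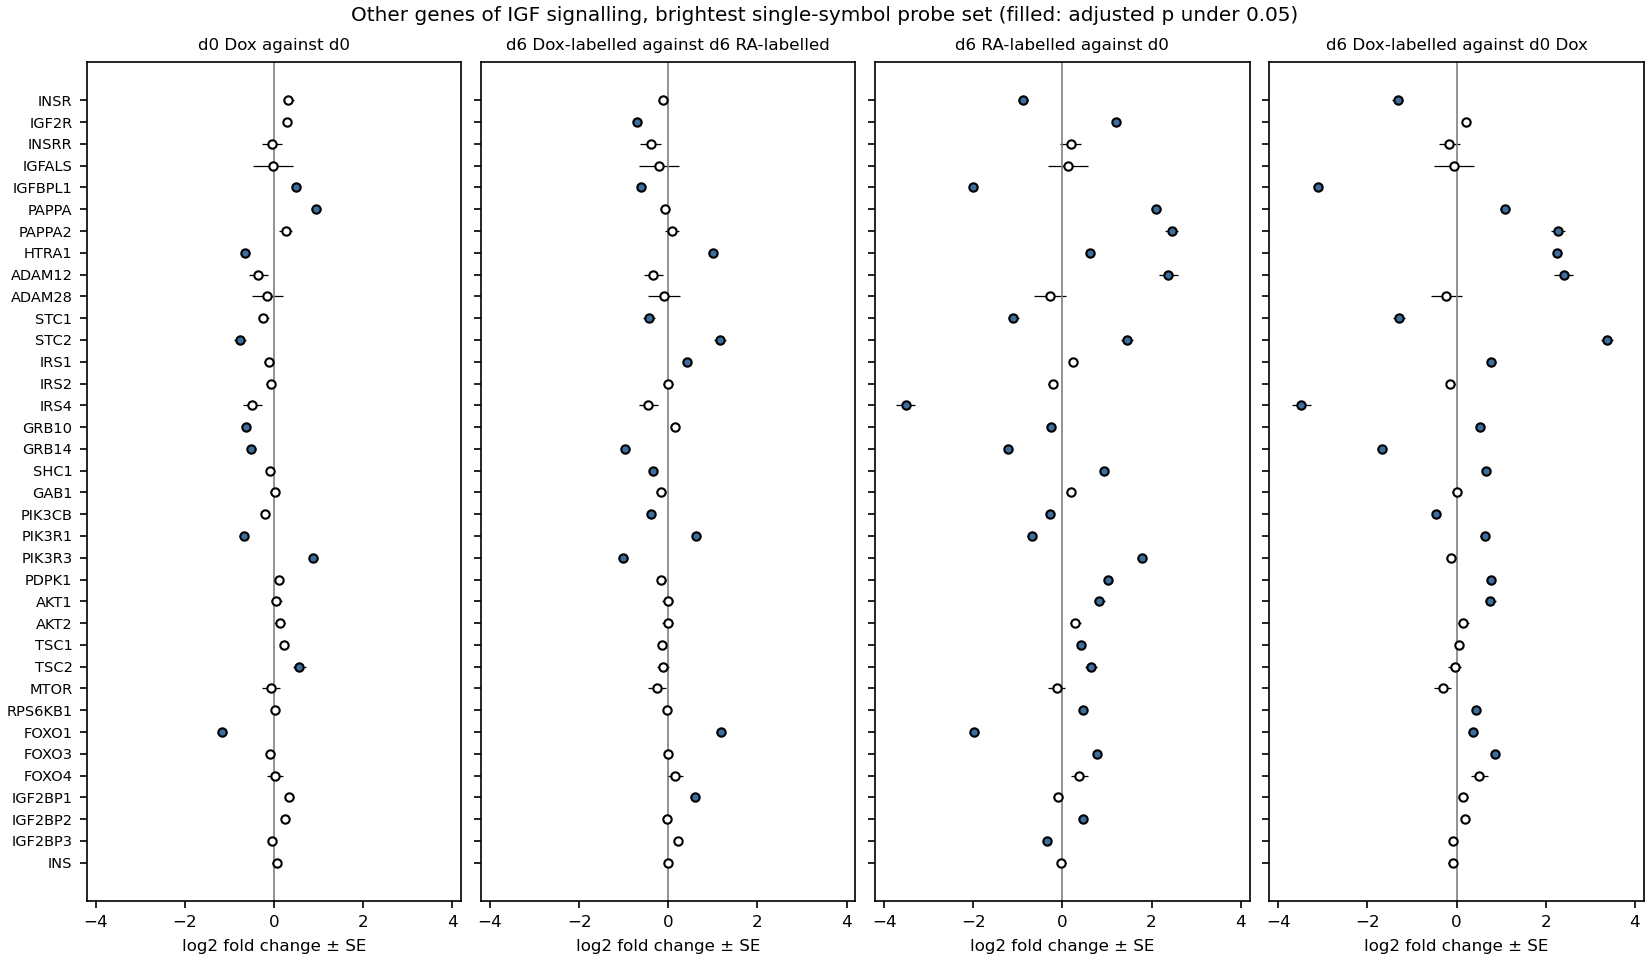
Log2 fold changes with standard errors of the 36 measured genes of IGF signalling outside the 10 members, in 1 panel per comparison, with filled points at an adjusted p under 0.05. IRS4 and IGFBPL1 fall and PAPPA2, ADAM12 and STC2 rise in both day 6 panels on the right, and FOXO1 and PIK3R1 change sign between the first and second panels.

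Genes with patterns most like those of the 3 members with the widest range were ranked by the root mean square difference of centred log2 values over the 12 arrays, among about as many genes as lie above the median level (9887 or 9888 candidates). For IGF2 the nearest were INHBA (0.54), POSTN (0.58) and GATA6 (0.64). For IGFBP6 they were POSTN (0.28), LAMP3 (0.31) and HOXB2 (0.32), and for IGFBP3 they were SPON1 (0.28), CCL2 (0.33) and ITGA9 (0.42). POSTN, a matrix protein gene that is also in the mesenchyme list, averaged 10845 in Dox-labelled and 1042 in RA-labelled day 6 arrays, against 249 in Dox-treated and 287 in untreated d0 arrays. Of the 12 mesenchyme markers, 4 were higher and 2 lower in Dox-labelled than in RA-labelled day 6 arrays, against 11.4% and 9.74% of all genes. Markers of liver and visceral endoderm, tissues known for IGF2 and IGFBP1, summed to 3679 to 6257 in Dox-labelled and 1456 to 5099.5 in RA-labelled day 6 arrays, against 874 to 984 in Dox-treated and 725 to 948 in untreated d0 arrays. Of 9 measured, 6 were called higher in Dox-labelled day 6 against Dox-treated d0 arrays (20.7% of all genes). In RA-labelled day 6 against untreated d0 arrays 4 were called higher (23.9% of all genes), and 1 in Dox-labelled against RA-labelled day 6 arrays (11.4% of all genes). AFP, a fetal liver and yolk sac protein, averaged 1429 in Dox-labelled and 1517 in RA-labelled day 6 arrays, against 109 in Dox-treated and 87.4 in untreated d0 arrays, while ALB had group means of 20.7 to 25.3. By array, AFP read 1605, 1879 and 804 in Dox-labelled and 2070, 1818 and 664 in RA-labelled day 6 arrays. RA-labelled replicate 3 was the lowest of its group, as for the brightest probe sets of IGF2 and IGFBP3. Summed trophoblast markers were 12169 to 12959 in Dox-labelled and 4973 to 5389.5 in RA-labelled day 6 arrays, 1666 to 1707 in Dox-treated d0 arrays and 775 to 932 in untreated d0 arrays. Of the 7, 4 were called higher in each day 6 group against its d0 group (of all genes, 20.7% in Dox-labelled and 23.9% in RA-labelled arrays). In Dox-labelled against RA-labelled day 6 arrays 3 were called higher (11.4% of all genes), and 2 with Dox at d0 (5.14% of all genes). KRT7 averaged 5024 in Dox-labelled and 1831 in RA-labelled day 6 arrays, against 134 in Dox-treated and 99.7 in untreated d0 arrays, and CGA and GCM1 stayed under 12 in every group mean. The part of these cell types in the IGF results was not tested.

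By position in GRCh38.p14, IGFBP1 and IGFBP3 are neighbours on chromosome 7 and IGFBP2 and IGFBP5 on chromosome 2, with no gene between them. IGFBP2 rose at day 6 while IGFBP5 fell. IGFBP1 was too dim to set its changes against those of IGFBP3.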

How the data were processed

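Total RNA of 12 H9 samples in 4 groups of 3, taken from the sample titles, was read on Affymetrix arrays. The files deposited by the authors hold intensities on a linear scale. Their background correction, summarisation and scaling were not given in the sources used here, and after trimming 2% at each end every array had a mean of 500. Arrays give no counts, so their number limits the precision. Of 54675 probe sets, 62 controls were left out and 54613 tested. By the platform annotation 41091 carried 1 symbol, 1801 several and 11721 none here, and 41037 were matched to the gene table of GRCh38.p14. Values were analysed as log2(intensity + 16) with limma 3.58.1 in R 4.3.3 (lmFit, eBayes, 1 mean per group, 8 degrees of freedom for the residual), and p-values were adjusted by Benjamini-Hochberg over all probe sets at a threshold of 0.05. The fit was tested on simulated data.

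Each gene was read by its brightest probe set (highest mean log2 value). The named genes are the 10 members, up to 4 largest rises and 4 largest falls among called genes of the pathway list whose arrays did not overlap in each comparison, and the 3 genes most like each of 3 members. The members and lists were chosen with earlier results of these data known. Alternatives were the pseudocount, a filter on dim probe sets, quantile normalization, median centring, trended robust variance, a replicate block, only the arrays compared, 1 probe set per gene, and leaving out each array. No 2 arrays were identical.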

Additional observations from a re-analysis of the deposited data

Results flagged for a closer look

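The change from d0 to day 6 differed between the Dox arm (Dox-labelled day 6 minus Dox-treated d0) and the RA arm (RA-labelled day 6 minus untreated d0) for 5 genes, by a test of the difference itself in limma. Of all genes, 18.7% were called in that test. On the log2 scale the difference was 3.31 for IGF2, 4.27 for IGFBP3, 3.33 for IGFBP6 and 0.95 for IGFBP7, each larger in the Dox arm, and -0.55 for IGF1R. The IGF1R call was lost in 11 of the 12 fits without 1 array (adjusted p of 0.0541 to 0.084) and with median centring. For the first 3 the day 6 groups did not overlap with each other. The arms pair the groups by their labels, which retinoic acid response genes went against at day 6. For the brightest probe set of IGFBP7, the day 6 groups overlapped and the d0 groups did not. With the d0 groups exchanged its order turned round, at 2.26 in Dox-labelled day 6 against untreated d0 arrays and 3.06 in RA-labelled day 6 against Dox-treated d0 arrays.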

How the results depend on the processing

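Of 2090 values of single genes and probe sets under the alternatives, 1958 kept direction and side of the threshold, 100 lost their call, 9 gained one and 23 changed sign, none of which was called to begin with. With Dox at d0 the members called were 4, and 2 when only the arrays compared were fitted; pathway genes called were 10, and 6 in that fit. Probe sets called with Dox at d0 were 3176, against 5246 with dim probe sets left out, 5279 with trended robust variance and 1347 from only the arrays compared. With 1 probe set per gene, fewer features were tested, and 5121 were called between the day 6 groups, 9994 in RA-labelled day 6 against untreated d0 and 9121 in Dox-labelled day 6 against Dox-treated d0. Leaving out 1 array gave 1 to 3 members and 1861 to 2491 probe sets called with Dox at d0.

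The sign changes were in IGF1, IGFBP1, IGF1R, IGFBP5 and IGFBP7, and their cause was not tested. Without 1 array, IGF1 ranged from -0.31 to 0.53 with Dox at d0, -0.57 to 0.31 between the day 6 groups, -0.29 to 0.63 in RA-labelled day 6 against untreated d0, -0.51 to 0.32 in Dox-labelled day 6 against Dox-treated d0, -0.46 to 0.53 in Dox-labelled day 6 against untreated d0, -0.27 to 0.42 in RA-labelled day 6 against Dox-treated d0 and -0.78 to 0.15 for the difference between arms. In RA-labelled day 6 against Dox-treated d0, IGF1 was -0.0066 with a pseudocount of 1. Without 1 array, IGFBP1 ranged from -0.31 to 0.23 between the day 6 groups and -0.099 to 0.44 in Dox-labelled day 6 against Dox-treated d0, and IGFBP5 from -0.0039 to 0.051 between the day 6 groups. IGFBP1 between the day 6 groups was -0.14 with a pseudocount of 1. IGF1R in Dox-labelled day 6 against Dox-treated d0 was 0.0857 with median centring, and IGFBP7 between the day 6 groups was -0.0535 with quantile normalization.

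Deviations from the group means correlated at -0.016 to 0.095 in 18 same-numbered pairs of arrays (median 0.019). In 36 pairs with other numbers they correlated at -0.10 to 0.033 (median -0.0088). Such small correlations cannot tell whether replicate numbers pair the samples, and the main fit did not pair them. With a replicate block the members called were 3 with Dox at d0, where IGFBP5 lost its call, 5 between the day 6 groups, 7 in both comparisons of day 6 with d0, and 5 for the difference between arms. The shares of all genes called with the block are not given here. In the main fit they were 8.47% with Dox at d0 and 21.2% between the day 6 groups. They were 47.6% in the RA arm, 42.7% in the Dox arm and 18.7% for the difference between arms.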
